A study of Mus musculus with 10 samples.

Results

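The growth hormone and insulin-like growth factor (IGF) axis was followed through 10 genes in regenerating mouse liver: Ghr, Socs2, Igf1, Igfals, Igfbp1, Igfbp2, Igfbp3, Igfbp4, Insr and Irs2. They were chosen by name for their place in the axis, with earlier results of these data known, and their rows were read from the 55487 gene identifiers counted in each of 2 liver RNA-seq experiments. All 10 passed the filter on low counts in both experiments, in which 15589 and 15788 genes were tested. In the diet experiment, C57BL/6J mice labelled as male and 8 weeks old were fed a high-fat diet (HFD, 3 livers) or chow (3 livers) for 7 days before partial hepatectomy (PHx, removal of part of the liver), and liver was taken 40 h after surgery. In the inhibitor experiment, mice with the same strain, sex and age on their labels received SSO at 40 mg/kg (4 libraries) or its solvent, here called vehicle (4 libraries), 1 day before PHx, and liver was taken 48 h after surgery. SSO is the usual abbreviation of sulfosuccinimidyl oleate, a compound that blocks the fatty acid transporter CD36. Every liver in both experiments had undergone PHx, controls included. The labels give 8 mice per group for the inhibitor experiment and do not say which mice the 4 libraries of a group came from. The p-values of that experiment therefore cover the variation among libraries, which may be technical. The study's question, from its title, concerns how lipid reaching the liver bears on regeneration and on CD36-positive macrophages.

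Growth hormone from the pituitary binds its receptor (Ghr) on hepatocytes, and the receptor acts through the kinase JAK2 and the transcription factor STAT5 to switch on Igf1, Igfals and the feedback inhibitors Socs2 and Cish. IGF1 leaves the liver bound to carrier proteins (IGFBPs), and the long-lived serum complex joins IGF1, IGFBP3 and the acid-labile subunit that Igfals encodes. Insulin acts on the same cells through its receptor (Insr) and the adaptor IRS2, and by removing the transcription factor FOXO1 from the nucleus it lowers Igfbp1 and Irs2. In mice the timing of growth hormone secretion differs between the sexes, and pulses or a steadier supply keep separate sets of male-biased and female-biased liver genes on.

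Levels are given as CPM, counts scaled to library size with TMM factors within each experiment, and as TPM, which also divides by exon length, where genes are compared with each other. Total counts per library ran from 31912664 to 33928268 in HFD and 36658466 to 39910561 in chow livers, and from 27969989 to 30388236 in SSO and 25204205 to 29825633 in vehicle livers. Hepatocyte markers were abundant in every library (summed level of 7 markers, 64166 to 71654 CPM in HFD and 51575 to 79216 CPM in chow livers; 67551 to 88848 CPM in SSO and 66004 to 103673 CPM in vehicle livers). The inhibitor libraries went against the sex on their label. All 8 held Xist, the RNA of the inactive X chromosome, at 698 to 1772 CPM, and no counts of Uty, Kdm5d, Ddx3y or Eif2s3y, which lie on the Y chromosome, whereas the diet libraries held Ddx3y at 55.0 to 76.3 CPM and Xist at no more than 0.620 CPM. The vehicle libraries also stood apart from each other. On the first principal component, with 45.8% of the variance, SSO livers lay between 31.8 and 40.5, against -97.3, 52.5, -92.8 and -2.89 in vehicle livers 1 to 4, and mitochondrially encoded genes took 15.2% to 17.6% of counts in SSO livers, against 4.99%, 22.5%, 11.5% and 9.15% in vehicle livers 1 to 4. Summed markers of monocytes and recruited macrophages (7 genes, none at 0 in every library of a group) reached 46.7 to 53.2 CPM in SSO livers, against 493, 101, 498 and 164 CPM in vehicle livers 1 to 4. The sum includes Cd36, whose protein SSO blocks. Cd36 alone had 35.5, 32.2, 41.1 and 34.5 CPM in SSO livers, against 101, 72.4, 77.9 and 96.3 CPM in vehicle livers 1 to 4. Stellate cell and fibroblast markers, like the monocyte and macrophage sum, were highest in vehicle livers 1 and 3 (166 to 263 CPM in SSO livers; 611, 157, 552 and 243 CPM in vehicle livers 1 to 4), as were Kupffer cell markers (163 to 288 CPM in SSO livers; 412, 95.2, 311 and 83.9 CPM in vehicle livers 1 to 4). Single markers did not all follow these sums. Cd5l, Marco, Adgre1 and Vsig4 followed the Kupffer cell sum, but Clec4f was highest in SSO liver 2 (146 CPM) and Timd4 in SSO liver 4 (7.80 CPM). Of the stellate cell and fibroblast markers, Dcn was highest in SSO liver 2 (152 CPM). Because the sums were highest in vehicle livers 1 and 3, results in the inhibitor experiment are also given without these libraries.

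The promoters of 3 members are shown because they bear on the FOXO1 arm of the axis and on the member that passed the test. Of the 10 members, 8 had promoter windows in the RefSeq table (GRCm38.p6; 250 bases before to 50 after a transcription start). Both strands were searched for the insulin response element of FOXO factors (CAAAACA, or TGTTTTG on the other strand), the FOXO consensus (GTAAACA, or TGTTTAC) and the STAT palindrome (TTCNNNGAA). These letters occur in 6.28%, 3.65% and 8.30% of all 32851 mouse promoter windows in that order of motifs. Capitals mark the insulin response element in Igfbp1 (chr11:7197537-7197836, plus strand), 108 bases before the start, and in Irs2 (chr8:11008880-11009179, minus strand), 37 bases before the start and on the opposite strand. The first Igfbp2 window (chr1:72824230-72824529, plus strand), like the windows of Ghr, Igf1, Igfbp3 and Igfbp4, held none of the 3 motifs, and 2 of the 3 Igfals windows held a STAT palindrome, one of them together with the FOXO consensus 242 bases before the start. A match here is a run of letters, with no measurement of binding.
Igfbp1: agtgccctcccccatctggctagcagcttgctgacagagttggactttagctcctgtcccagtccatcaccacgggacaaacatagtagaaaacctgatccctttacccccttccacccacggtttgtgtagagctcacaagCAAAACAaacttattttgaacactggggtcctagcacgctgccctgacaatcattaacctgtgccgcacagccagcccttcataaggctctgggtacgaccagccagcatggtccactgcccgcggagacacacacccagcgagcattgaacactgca
Irs2: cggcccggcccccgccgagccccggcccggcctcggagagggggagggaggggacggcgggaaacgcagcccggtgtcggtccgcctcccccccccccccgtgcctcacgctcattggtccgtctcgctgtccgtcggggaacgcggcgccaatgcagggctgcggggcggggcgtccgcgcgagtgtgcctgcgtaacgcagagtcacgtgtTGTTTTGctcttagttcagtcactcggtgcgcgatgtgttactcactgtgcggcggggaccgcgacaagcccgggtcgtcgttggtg
Igfbp2: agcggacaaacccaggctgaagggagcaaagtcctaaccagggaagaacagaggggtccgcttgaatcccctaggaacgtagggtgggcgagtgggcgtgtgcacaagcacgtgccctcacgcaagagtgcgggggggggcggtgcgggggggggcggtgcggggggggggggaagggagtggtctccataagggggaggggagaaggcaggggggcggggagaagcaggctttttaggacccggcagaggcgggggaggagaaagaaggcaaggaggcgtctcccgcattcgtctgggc

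Per transcript length, the carriers Igfbp4 and Igfbp2 had the highest mean level of the members in every group, although vehicle liver 2 held only 88.8 TPM of Igfbp2. Igfbp4 averaged 972 ± 88.0 TPM in HFD and 1001 ± 207 TPM in chow livers (SD, n = 3 each), and 516 ± 44.6 TPM in SSO and 719 ± 115 TPM in vehicle livers (SD, n = 4 each). Igf1, the hormone itself, followed in HFD livers with 130.2 ± 5.64 TPM, above Ghr, Igfals and Igfbp1 (94.8, 75.4 and 60.8 TPM), and the library ranges of Igfals and Igfbp1 overlapped there. In chow livers the order from Igf1 (149.7 TPM) through Igfbp1 (147.8 TPM) and Ghr (87.4 TPM) to Igfals (76.5 TPM) had overlapping ranges between each gene and the next. The Igf1 range there (147 to 154 TPM) lay above those of Ghr (59.8 to 115 TPM) and Igfals (50.5 to 95.5 TPM). Insr, Igfbp3, Irs2 and Socs2 were the lowest 4 in all groups, between 4.46 TPM (Socs2 in chow livers) and 19.8 TPM (Insr in chow livers). Irs2 and Socs2 overlapped each other in every group.

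**Figure D1:**
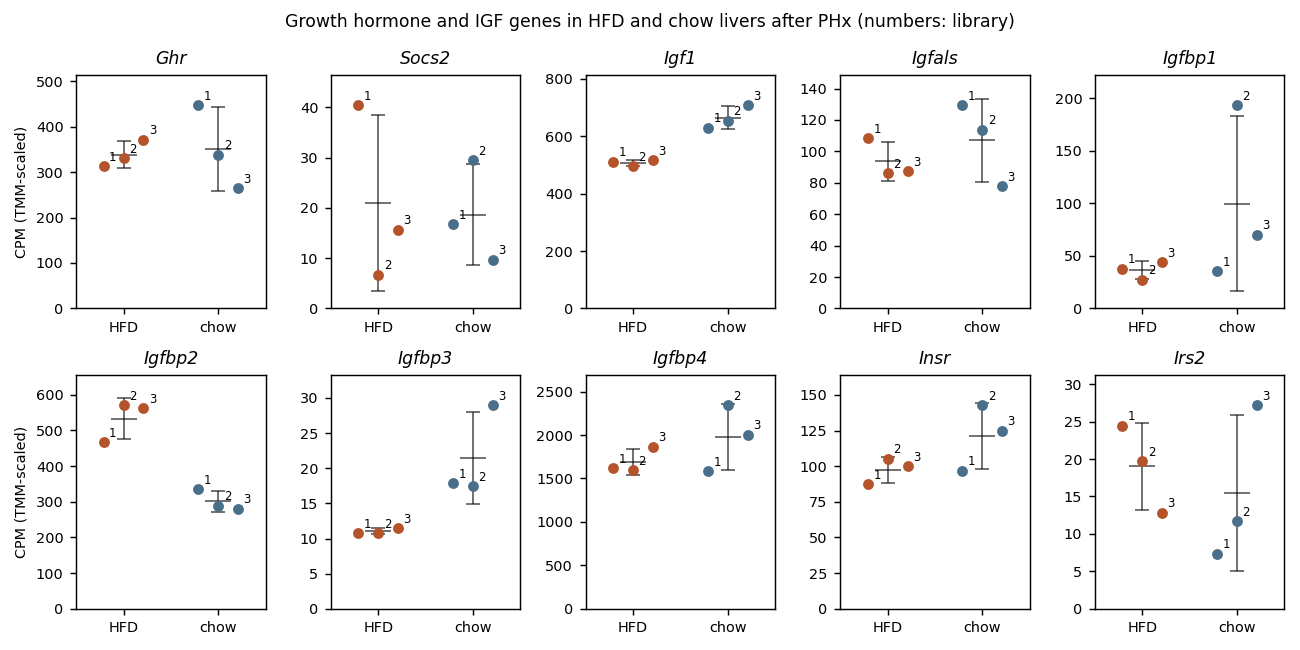
Level of each of the 10 members in CPM (vertical axes, linear, starting at 0) in 3 HFD and 3 chow livers 40 h after PHx. Points are libraries with their number, and bars give the mean and SD. The Igfbp2 points of HFD livers (467 to 570.4 CPM) all lie above those of chow livers (280.3 to 336 CPM), and the Igf1 and Igfbp3 points all lie below.

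In the diet comparison, 1 of the 10 members passed the test, the carrier gene Igfbp2, which was higher after HFD. Igfbp2 encodes a carrier that the liver releases into blood and that insulin and growth hormone are known to lower. Its gene lies at chr1:72824503-72852474 (GRCm38, plus strand). Igfbp2 had 467, 570.4 and 562 CPM in HFD livers, against 336, 289 and 280.3 CPM in chow livers. Every HFD liver was above every chow liver, and the difference was 1.77-fold (log2 fold change 0.82 ± 0.16 SE, 95% interval 0.46 to 1.18, adjusted p = 0.0359). Across all genes tested, 2.32% passed in either direction, 1.6% higher and 0.718% lower in HFD livers. The call rested on all but 1 library: the adjusted p was 0.0173 without chow liver 1, but 0.123 and 0.0601 without chow liver 2 or 3, and 0.107, 0.151 and 0.155 without HFD liver 1, 2 or 3, while the log2 fold change stayed between 0.77 and 0.91.

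Of the other 3 carriers, 0 passed with edgeR, and Igfbp3 was the 1 with an unadjusted p under 0.05 and the 1 called by DESeq2. Igfbp3, the carrier of the long-lived serum complex, had 10.8, 10.8 and 11.5 CPM in HFD livers, against 17.9, 17.4 and 29.0 CPM in chow livers. The groups did not overlap, but at a log2 fold change of -0.96 (95% interval -1.43 to -0.49) the adjusted p of 0.0522 missed the threshold of 0.05. The value passed with DESeq2 (adjusted p = 0.00295) and without chow liver 1 (adjusted p = 0.0283). In rat liver Igfbp3 is made mainly by cells other than hepatocytes. In a bulk sample fewer cells of a type and less RNA per cell cannot be told apart. Summed sinusoidal endothelial markers ran from 81.7 to 109 CPM in HFD and from 84.2 to 135 CPM in chow livers, and Kupffer cell markers from 151 to 278 CPM in HFD and from 83.5 to 204 CPM in chow livers, so both overlapped between the diets. Some other summed markers did not overlap, with 0 genes called in these lists of 5 markers each. Cholangiocyte markers ran from 103 to 112 CPM in HFD livers, against 56.6 to 88.0 CPM in chow livers. Most of that sum was Spp1, at a mean of 85.0 CPM in HFD and 54.1 CPM in chow livers. Sox9 was also higher in every HFD liver, but Krt19, Krt7 and Epcam overlapped between the diets. The median log2 fold change of the cholangiocyte list was -0.31. Lymphocyte markers ran from 7.75 to 10.1 CPM in HFD livers, against 5.96 to 7.44 CPM in chow livers, and erythroid markers from 181 to 291 CPM in HFD livers, against 297 to 539 CPM in chow livers. The part of any of these in the Igfbp2 and Igfbp3 values was not tested.

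Igfbp1, the carrier gene that FOXO1 raises and insulin lowers, had 37.7, 27.5 and 44.2 CPM in HFD livers, against 35.4, 193 and 70.0 CPM in chow livers. Chow liver 2 was far above the rest and chow liver 1 lay within the HFD range. The log2 fold change was -1.45 (95% interval -2.99 to 0.09, adjusted p = 0.360), and -0.53 without chow liver 2. Igfbp1 (chr11:7197782-7202546, plus strand) and Igfbp3 (chr11:7206086-7213923, minus strand) are neighbours whose ends lie 3539 bases apart, and chow liver 3, not chow liver 2, was the highest for Igfbp3. Igfbp4, a carrier that holds IGF1 away from its receptor until it is cut, had 1616, 1593 and 1863 CPM in HFD livers, against 1583, 2341 and 2004 CPM in chow livers (log2 fold change -0.23, 95% interval -0.67 to 0.22, adjusted p = 0.654).

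Of the hormone and its serum partner, Igf1 had 511, 496 and 516 CPM in HFD livers, against 630.0, 654 and 708 CPM in chow livers. All HFD livers were lower than all chow livers and the spread within each diet was small, with a coefficient of variation of 2.07% in HFD and 6.04% in chow livers. The log2 fold change of -0.39 (95% interval -0.72 to -0.06) nevertheless did not pass over all genes (adjusted p = 0.253). Igfals, which encodes the acid-labile subunit, had 108, 86.1 and 87.2 CPM in HFD livers, against 129, 114 and 77.9 CPM in chow livers. Chow livers held both its highest and its lowest value (log2 fold change -0.19, 95% interval -0.63 to 0.25, adjusted p = 0.712).

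The receptor gene Ghr had 313, 330 and 371 CPM in HFD livers, against 447, 338 and 264 CPM in chow livers, so the HFD livers lay within the chow range (log2 fold change -0.05, 95% interval -0.51 to 0.41, adjusted p = 0.948). Socs2, the feedback inhibitor that growth hormone induces within hours, was the most scattered member in HFD livers, with 40.4, 6.74 and 15.7 CPM in HFD livers, against 16.7, 29.5 and 9.68 CPM in chow livers. Its coefficient of variation was 83.3% in HFD and 53.9% in chow livers, and its interval (log2 fold change 0.17, -1.64 to 1.97, adjusted p = 0.953) leaves a large change in either direction possible. On the insulin side, Insr had 87.4, 105 and 99.8 CPM in HFD livers, against 96.8, 143 and 125 CPM in chow livers (log2 fold change -0.32, 95% interval -0.69 to 0.06, adjusted p = 0.423). Irs2 had 24.4, 19.7 and 12.8 CPM in HFD livers, against 7.34, 11.7 and 27.2 CPM in chow livers (log2 fold change 0.31, 95% interval -0.88 to 1.49, adjusted p = 0.837). In chow livers Irs2 was lowest in liver 1 and highest in liver 3, whereas Igfbp1, the other gene with the CAAAACA letters in its promoter window, was highest in liver 2.

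Over the 10 members, 3 had log2 fold changes above 0 and 7 below, with a median of -0.21, against -0.02 over all genes tested. Groups did not overlap for 3 members (Igf1, Igfbp2 and Igfbp3), or 30.0% of them, against 21.9% of all genes tested. At an unadjusted p under 0.05 there were 3 members, 1 higher and 2 lower in HFD livers. Such values were common, with at least 2275 of the 15589 genes tested under that edgeR p.

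**Figure D2:**
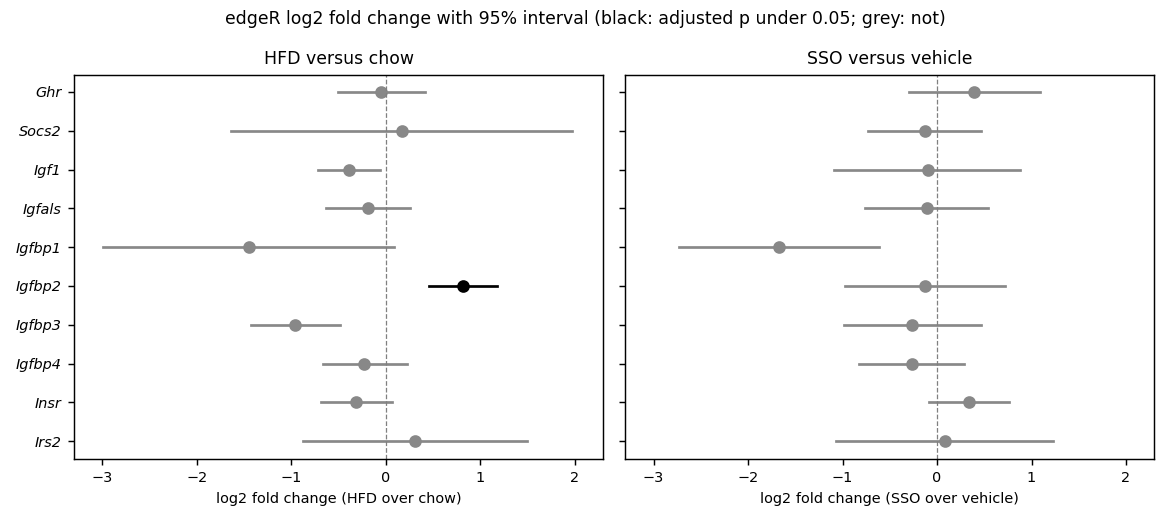
Log2 fold change of the 10 members with 95% intervals from the edgeR fit over all genes, for HFD over chow (left) and SSO over vehicle (right). Black marks an adjusted p under 0.05, which only Igfbp2 in the diet comparison reached, at 0.82; Igfbp1 lay at -1.45 in the diet and -1.67 in the inhibitor comparison without passing in either.

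In the inhibitor comparison no member passed the edgeR test, and Igfbp1 was the member with the largest difference, lower in SSO livers on average. Of all genes tested, 0.45% passed in either direction, 0.317% higher and 0.133% lower in SSO livers. At an unadjusted p under 0.05 there was 1 member, Igfbp1, lower in SSO livers; DESeq2 called 1 member, also Igfbp1, and limma-voom called 0. Over all genes, at least 3008 of the 15788 tested had an unadjusted edgeR p under 0.05. Groups did not overlap for 0 of the 10 members, against 11.8% of all genes tested. The median log2 fold change of the members was -0.12, with 3 above 0 and 7 below, against -0.04 over all genes.

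Igfbp1 had 37.9, 13.4, 42.9 and 27.7 CPM in SSO livers, against 154, 77.9, 120 and 35.8 CPM in vehicle livers. Vehicle livers 1 to 3 were above every SSO liver, and vehicle liver 4 lay within the SSO range. The log2 fold change was -1.67 ± 0.47 (SE; 95% interval -2.73 to -0.61) with an adjusted p of 0.123 from edgeR and 0.00609 from DESeq2. Without vehicle liver 4 it was -1.93 with an adjusted p of 0.0362. The 2 highest values belonged to vehicle livers 1 and 3, the libraries with the most monocyte and stellate cell marker RNA, and without both the log2 fold change was -0.89 (adjusted p = 0.515).

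**Figure D3:**
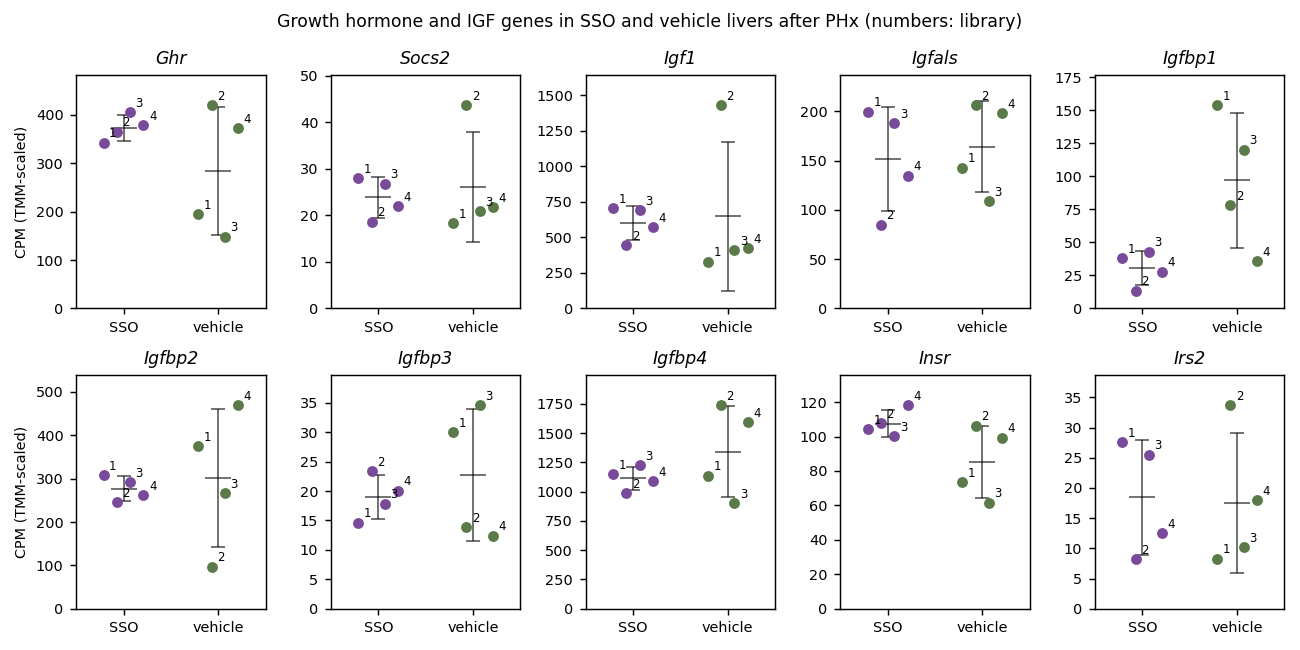
Level of each member in CPM (vertical axes, linear, starting at 0) in 4 SSO and 4 vehicle livers 48 h after PHx. Points are libraries with their number, and bars give the mean and SD. Vehicle livers spread more widely than SSO livers for most members: vehicle liver 2 is the highest for Igf1 (1431 CPM) and Socs2 (43.7 CPM) and the lowest for Igfbp2 (97.2 CPM).

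Igf1 had 705, 446, 690 and 573 CPM in SSO livers, against 330, 1431, 408 and 422 CPM in vehicle livers. A single vehicle liver set the vehicle mean: liver 2 was far above all others, while the remaining vehicle livers were below every SSO liver. The log2 fold change was -0.10 (95% interval -1.09 to 0.88, adjusted p = 0.916) with all libraries and 0.64 (adjusted p = 0.0742) without vehicle liver 2. That library also had the largest mitochondrial share (22.5% of counts) and the fewest genes with counts (18104). Igfals had 199.6, 85.0, 188 and 134 CPM in SSO livers, against 143, 206, 109 and 198 CPM in vehicle livers, with overlapping groups (log2 fold change -0.11, 95% interval -0.76 to 0.54, adjusted p = 0.857).

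Igfbp2, which passed in the diet comparison, had 308, 245, 291 and 262 CPM in SSO livers, against 375, 97.2, 267 and 469 CPM in vehicle livers. The SSO livers were close together, with a coefficient of variation of 10.3%, against 52.8% in vehicle livers, and lay inside the vehicle range (log2 fold change -0.13, 95% interval -0.97 to 0.72, adjusted p = 0.874). Igfbp3 had 14.6, 23.4, 17.8 and 20.03 CPM in SSO livers, against 30.0, 13.9, 34.6 and 12.4 CPM in vehicle livers. Vehicle livers 1 and 3 were its highest, as for Igfbp1 and for the summed stellate cell and Kupffer cell markers, though not for every single marker. With all libraries its log2 fold change was -0.26 (95% interval -0.98 to 0.46, adjusted p = 0.674), and without vehicle livers 1 and 3 it was 0.53. Igfbp4 had 1150.2, 988, 1225 and 1088 CPM in SSO livers, against 1137, 1736, 901 and 1591 CPM in vehicle livers (log2 fold change -0.27, 95% interval -0.83 to 0.29, adjusted p = 0.574).

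Both receptors were lowest in vehicle livers 1 and 3. Ghr had 343, 366, 406 and 378 CPM in SSO livers, against 195, 420.5, 149 and 373 CPM in vehicle livers (log2 fold change 0.39, 95% interval -0.30 to 1.09, adjusted p = 0.496). Insr had 104, 108, 100.04 and 118 CPM in SSO livers, against 73.4, 106, 61.7 and 99.2 CPM in vehicle livers (log2 fold change 0.34, 95% interval -0.09 to 0.76, adjusted p = 0.346). Neither difference was beyond the spread of the vehicle livers, and for Ghr the log2 fold change without vehicle livers 1 and 3 was -0.09. Socs2 had 27.9, 18.6, 26.8 and 21.96 CPM in SSO livers, against 18.3, 43.7, 20.8 and 21.7 CPM in vehicle livers (log2 fold change -0.13, 95% interval -0.73 to 0.47, adjusted p = 0.815). Irs2 had 27.5, 8.19, 25.5 and 12.6 CPM in SSO livers, against 8.26, 33.7, 10.2 and 17.9 CPM in vehicle livers (log2 fold change 0.08, 95% interval -1.07 to 1.23, adjusted p = 0.942). Without vehicle livers 1 and 3, 0 members were called. The remaining log2 fold changes were then -0.61 for Igf1 (adjusted p = 0.601), -0.41 for Igfals (0.580), -0.04 for Igfbp2 (0.986), -0.58 for Igfbp4 (0.174), -0.45 for Socs2 (0.487), 0.07 for Insr (0.883) and -0.48 for Irs2 (0.746). Of the lists described below, 1 female-biased gene was then called, lower in SSO livers, and 0 genes of the other lists. Calls over all genes changed with the libraries left out, and this 1 call was not set against their number. With all libraries, SSO livers 1 and 3 were the higher pair for Irs2, Igf1, Igfals, Socs2 and Igfbp1 alike.

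The make-up of the carrier transcripts shows the Igfbp2 difference per library. In the summed TPM of Igfbp1 to Igfbp4, Igfbp2 took 39.1%, 44.7% and 40.1% in HFD livers, against 31.9%, 19.1% and 23.0% in chow livers. Igfbp4 took 56.6%, 52.2% and 55.6% in HFD livers, against 63.0%, 64.7% and 68.7% in chow livers, so neither share overlapped between the diets. Igfbp1 took 3.82%, 2.61% and 3.82% in HFD livers, against 4.08%, 15.5% and 6.95% in chow livers. In SSO livers the shares were nearly the same from library to library (Igfbp4 57.0% to 60.0%, Igfbp2 33.6% to 36.5%). Igfbp1 took 5.44%, 2.36%, 6.00% and 4.41% in SSO livers 1 to 4, against 17.7%, 10.2%, 18.0% and 3.66% in vehicle livers 1 to 4. In vehicle liver 2 Igfbp2 took 10.5% and Igfbp4 78.4%. These shares are descriptions of the levels above and were not tested.

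**Figure D4:**
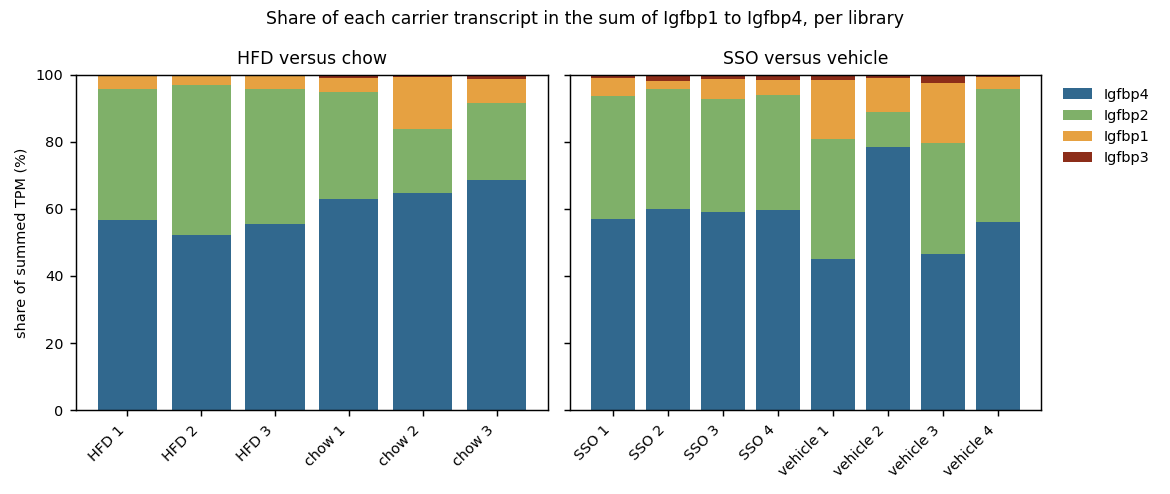
Share of Igfbp4, Igfbp2, Igfbp1 and Igfbp3 in their summed TPM (vertical axis, percent) for each library, HFD and chow on the left and SSO and vehicle on the right. HFD livers hold 39.1% to 44.7% Igfbp2, against 19.1% to 31.9% in chow livers, and vehicle livers 1 and 3 hold the largest Igfbp1 shares.

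The other genes of the axis were read from 6 lists. Their counts at an unadjusted edgeR p under 0.05 stand beside many such genes overall. These were at least 2275 of 15589 genes tested in the diet and 3008 of 15788 in the inhibitor comparison. In growth hormone receptor signalling (11 genes, all tested), 1 rose and 0 fell in HFD livers, with a median log2 fold change of 0.10. The gene was Stat5a, one of the STAT5 factors, with 26.5, 24.6 and 25.9 CPM in HFD livers, against 13.4, 17.8 and 12.9 CPM in chow livers (log2 fold change 0.81 ± 0.15 SE, adjusted p = 0.0332). No HFD liver overlapped a chow liver for Stat5a, but the adjusted p was 0.0567 without chow liver 3 and 0.157, 0.105 and 0.131 without HFD liver 1, 2 or 3. Stat5b, the STAT5 factor that prevails in liver, averaged 61.9 ± 4.65 CPM in HFD and 46.6 ± 13.1 CPM in chow livers (SD, n = 3 each), without passing (log2 fold change 0.41, adjusted p = 0.402). Jak2, the receptor's kinase, averaged 16.6 CPM in HFD and 13.1 CPM in chow livers (log2 fold change 0.34, adjusted p = 0.398). Cish, a feedback inhibitor like Socs2, was more scattered than Socs2 (coefficient of variation 110.3% in HFD and 94.6% in chow livers), with 7.58, 38.7 and 4.84 CPM in HFD livers, against 55.9, 9.34 and 15.2 CPM in chow livers (adjusted p = 0.832). Of the Cish exon length, 11.5% overlaps a gene on the other strand, and with no strand setting stated its counts are uncertain by that part.

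In the same list 0 genes passed in the inhibitor comparison, with 3 at an unadjusted p under 0.05, all lower in SSO livers, 1 gene called by DESeq2 and a median of -0.15. Jak2 averaged 14.9 CPM in SSO and 18.9 CPM in vehicle livers (adjusted p = 0.324), Stat5b 60.7 CPM in SSO and 46.0 CPM in vehicle livers (adjusted p = 0.262), and Cish 15.8 CPM in SSO and 12.7 CPM in vehicle livers (adjusted p = 0.655). Without vehicle liver 2 this list had 2 calls, where 2646 genes were called in all (15788 were tested with all libraries).

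Of the IGF ligands, receptors and remaining carriers (12 genes), 6 were abundant enough to test in the diet and 7 in the inhibitor experiment. None passed with edgeR in either comparison (2 at an unadjusted p under 0.05 in the diet comparison, both lower in HFD livers, and 1 in the inhibitor comparison, lower in SSO livers; DESeq2 called 1 and 0). The medians were -0.35 in the diet and -0.29 in the inhibitor comparison. Igf1r, the receptor for IGF1, was low throughout, at 2.63 CPM in HFD and 3.85 CPM in chow livers (adjusted p = 0.419), and 3.25 CPM in SSO and 2.79 CPM in vehicle livers (adjusted p = 0.787). Igf2r, which binds IGF2 and carries it to lysosomes, averaged 44.2 CPM in HFD and 48.9 CPM in chow livers (adjusted p = 0.681). In SSO livers Igf2r averaged 32.2 CPM, against 60.4 CPM in vehicle livers (log2 fold change -0.91, adjusted p = 0.157). Igf2, the fetal ligand, had 0 counts in all 14 libraries, but 62.8% of its exon length overlaps another annotated gene on the same strand, so its level is uncertain.

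Of 24 genes of insulin and IGF signalling below the receptors, 23 were tested in each experiment and none passed with edgeR (2 at an unadjusted p under 0.05 in the diet comparison, both lower in HFD livers; 5 in the inhibitor comparison, 1 higher and 4 lower in SSO livers; DESeq2 called 0 and 1). The medians were 0.05 and -0.12. Irs1, the adaptor beside IRS2, averaged 11.4 CPM in HFD and 9.46 CPM in chow livers (adjusted p = 0.652), and 8.98 CPM in SSO and 12.3 CPM in vehicle livers (adjusted p = 0.465), with 30.9% of its exon length under a gene on the other strand. Foxo1 itself averaged 41.5 CPM in HFD and 35.7 CPM in chow livers (adjusted p = 0.777), and 24.5 CPM in SSO and 24.2 CPM in vehicle livers (adjusted p = 0.967). Without vehicle liver 2 the inhibitor comparison had 5 calls in this list, where 2646 genes were called in all (15788 were tested with all libraries).

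Among 9 genes known as FOXO1 targets in liver, all tested, 0 rose and 1 fell in HFD livers, and the median was -0.44. DESeq2 called 0 higher and 3 lower, and with scaling by library size alone 1 was called higher and 0 lower. The gene that fell with edgeR and TMM scaling was G6pc, the glucose-releasing enzyme glucose-6-phosphatase. It had 127, 149.5 and 137 CPM in HFD livers, against 274, 283 and 220.2 CPM in chow livers (log2 fold change -0.91 ± 0.15 SE, adjusted p = 0.0188). The G6pc call was lost without chow liver 2 (adjusted p = 0.0664) or without HFD liver 1, 2 or 3 (0.145, 0.0714 and 0.105), and with scaling by library size alone (0.0515). At an unadjusted p under 0.05 there were 6 of the 9, 2 higher and 4 lower in HFD livers, against at least 2275 of all 15589 genes tested. In the inhibitor comparison 0 of the 9 passed, 0 had an unadjusted p under 0.05, DESeq2 called 0, and the median was 0.20. G6pc there had 240.4, 123, 274 and 195 CPM in SSO livers, against 32.7, 408, 22.1 and 264 CPM in vehicle livers, the lowest values again being vehicle livers 1 and 3.

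**Figure D5:**
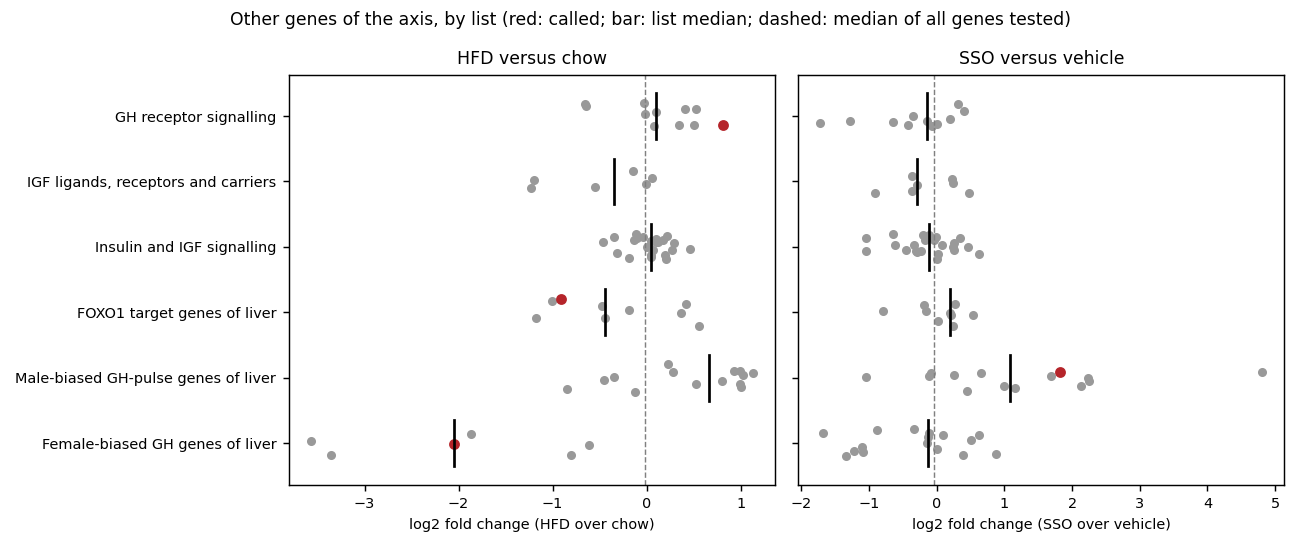
Log2 fold change of the tested genes in the 6 lists (horizontal axis), HFD over chow on the left and SSO over vehicle on the right. Red points passed at an adjusted p under 0.05, black bars give the list median and the dashed line the median of all genes tested. Genes with a mean under 0.1 CPM in either group are not drawn but count toward the list medians.

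Lists of sex-biased growth hormone target genes held 2 of the diet calls. Of 14 male-biased genes, all tested, none passed with edgeR in the diet comparison (3 at an unadjusted p under 0.05, 2 higher and 1 lower in HFD livers; DESeq2 called 3), with a median of 0.66. For some of them chow liver 1 stood far above chow livers 2 and 3. Hsd3b5 had 190.8, 6.20 and 6.67 CPM and Elovl3 402, 23.2 and 30.0 CPM in chow livers 1 to 3. Others were not split in this way, such as Cyp2d9 (1432, 1868 and 1427 CPM). Of 16 female-biased genes, 7 were abundant enough to test, and 0 rose and 2 fell in HFD livers, with a median of -2.05; DESeq2 called 5 and limma-voom 1, all lower. Of these, Cyp17a1, a steroid hydroxylase, had 5.29, 8.19 and 4.28 CPM in HFD livers, against 25.2, 18.6 and 29.7 CPM in chow livers (log2 fold change -2.05 ± 0.27 SE, adjusted p = 0.00806), and the call was lost without HFD liver 1 (adjusted p = 0.0653). For some uncalled genes of this list chow liver 2 alone stood high. Acot3 had 0.873, 25.3 and 0.953 CPM and Abcd2 6.39, 35.3 and 2.98 CPM in chow livers 1 to 3. Groups did not overlap for 4 of the 7 genes, or 57.1%, against 21.9% of all genes tested. The lists held 6 calls among male-biased genes and 4 among female-biased genes without chow liver 1. Calls over all genes also changed when libraries were left out, as given below, and whether the list counts go beyond that was not tested.

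In the inhibitor comparison 1 of the 14 male-biased genes rose and 0 fell, with a median of 1.08. Cyp2d9, a male-biased cytochrome P450 with close relatives that can share its reads, had 352, 564, 400.2 and 458 CPM in SSO livers, against 102, 101, 81.0 and 219.9 CPM in vehicle livers (log2 fold change 1.82 ± 0.32 SE, adjusted p = 0.0459). All SSO livers were above all vehicle livers for Cyp2d9. Its call was lost without vehicle liver 1 or 3 (adjusted p = 0.142 and 0.109), without any 1 of the SSO livers (0.126, 0.190, 0.138 and 0.172 for livers 1 to 4), and without vehicle livers 1 and 3 together (0.0961), with log2 fold changes between 1.46 and 2.24 over these and the remaining omissions. Of the 16 female-biased genes, all tested here, none passed with edgeR (6 at an unadjusted p under 0.05, 1 higher and 5 lower in SSO livers; DESeq2 called 3), and the median was -0.13. Without vehicle liver 2, 8 male-biased and 4 female-biased genes were called, where 2646 genes were called in all (15788 were tested with all libraries). In these livers, which carry Xist, Cyp17a1 had 90.3, 95.96, 84.9 and 92.4 CPM in SSO livers, against 47.3, 207, 33.6 and 109 CPM in vehicle livers. The 2 experiments were scaled separately and differ in sex markers, time after PHx and handling, so levels of the members are not compared between them.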

How the data were processed

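Whole-liver poly(A) RNA was sequenced in 14 libraries. The deposited values are raw counts per gene made by the authors; Trim Galore 0.6.1, HISAT2 2.2.1, featureCounts 2.0.2, DESeq2 and GRCm38 (mm10) appear in the submitters' processing notes, while the sources used here give neither the strand setting nor the annotation release. Of 55487 identifiers, 55227 matched GENCODE M21. The libraries were fitted one experiment at a time with edgeR 4.0.16 in R 4.3.3 (TMM scaling, filterByExpr, robust quasi-likelihood test, Benjamini-Hochberg adjustment over all genes tested), with calls made below an adjusted p of 0.05. The same code was tested on simulated data. Depth was 31912664 to 39910561 counts per library in the diet and 25204205 to 30388236 in the inhibitor experiment, so that 3 counts equal at most 0.119 CPM. TPM used summed exon lengths.

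The members and gene lists were chosen with earlier results of these data known. All 10 members are named, and from the lists those called (up to 5 per list and comparison by smallest p) and Igf2, Igf1r, Igf2r, Jak2, Stat5b, Cish, Irs1 and Foxo1; other genes named in the text were chosen after their values were seen. DESeq2 1.42.0, limma-voom (limma 3.58.1), library-size scaling, mitochondrial genes left out, no filter, a replicate block and omission of libraries were the alternatives; those for list genes were added after the values were seen. Replicate libraries of a group differed by more than sampling noise. The table of sorted macrophages (12 columns) and the single-cell samples were not analysed here. One called list gene is not reported here.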

Additional observations from a re-analysis of the deposited data

Results flagged for a closer look

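Igf1 in vehicle liver 2, at 1431 CPM, stood far above the other 3 vehicle livers, which lay between 330 and 422 CPM. The gap to its nearest neighbour took 0.916 of the group's whole range, above the 95% critical value of Dixon's test for a group of 4. Socs2 in the same liver, at 43.7 CPM, stood above the other 3 vehicle livers at 18.3 to 21.7 CPM in the same way, with a gap of 0.865 of the range. Chance flags about 1 in 20 groups. The rule was run on all 10 members in both the SSO and the vehicle group, so a flag by chance was to be expected. Both flags fell in the same library. Groups of 3 livers were not tested for such values.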

How the results depend on the processing

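Counts of members called changed with the processing. In the diet comparison the main count of 1 became 2 with DESeq2, 2 with no filter on low counts and 0 with a replicate block, and ran from 0 to 2 when each library was left out. In the inhibitor comparison the main count of 0 became 1 with DESeq2 and ran from 0 to 1 over omissions. The added members were Igfbp3 (diet) and Igfbp1 (inhibitor). Correlations of same-numbered libraries ran from -0.106 to 0.0193 in the diet and from -0.0748 to 0.0308 in the inhibitor experiment. Those of differently numbered libraries ran from -0.149 to 0.173 and from -0.0471 to 0.0607. With so few libraries these values cannot decide whether the replicate numbers pair the libraries. With the block the edgeR adjusted p was 0.123 for Igfbp2, 0.0747 for Stat5a, 0.0600 for G6pc and 0.0558 for Cyp2d9.

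Igfbp2 in the diet comparison, the called member, kept its sign under every alternative run. Signs turned for these uncalled members: Socs2 in the diet comparison (-0.053 with limma-voom, -0.73 to 0.67 over omissions), Ghr in the diet comparison (0.0887 with library-size scaling, -0.22 to 0.17 over omissions) and Irs2 in the diet comparison (-0.0229 to 0.994 over omissions). In the inhibitor comparison they were Igf1 (0.12 with limma-voom, 0.20 with the block, -0.32 to 0.64 over omissions) and Igfbp2 (0.12 with limma-voom, 0.0727 with the block, -0.42 to 0.18 over omissions). Over omissions, Igfals ran from -0.271 to 0.0865, Socs2 from -0.27 to 0.23, Igfbp3 from -0.452 to 0.0284 and Irs2 from -0.18 to 0.61. Without vehicle livers 1 and 3, Ghr was -0.0858, Igfbp3 0.53 and Irs2 -0.48. The cause was not tested.

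Calls over all genes ran from 86 to 681 over omissions in the diet experiment (361 in full) and from 0 to 2646 in the inhibitor experiment (71 in full), the largest without vehicle liver 2; DESeq2 gave 865 and 1137. Scaling by library size moved the median log2 fold change of all genes to 0.14 in the diet and -0.20 in the inhibitor comparison. The lowest count of any member in any library was 223. Where an omission left 2 libraries in a group, the spread was shared with the other group. The 3 comparisons of sorted macrophages were not run because the columns of that table could not be tied to samples.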

Other observations

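The genes whose log2 CPM followed Igf1 most closely, by the smaller of the 2 Pearson correlations over the 6 diet and the 8 inhibitor libraries among 12871 genes, were Ndufb1-ps (0.953), Cmc1 (0.920), Slc25a51 (0.903), Ttc39b (0.902) and Gng5 (0.900). Vehicle liver 2 was the highest inhibitor library for Igf1, and the correlations were not recomputed without it. The genes that followed Igfbp1 most closely were Fam84b (0.959), Slco3a1 (0.891), Smyd2 (0.874), Ugcg (0.871) and Anxa7 (0.870). The libraries share their depth and scaling within an experiment, and these correlations are descriptions with no test.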
